A study of Mus musculus with 4 samples.

Results

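Blood left in whole tissue carries its own RNA, and this account follows the genes of the red blood cell in whole mammary fat pad (MFP). The genes were the rows of the deposited count table whose symbol is Hba-a1, Hba-a2, Hbb-bs, Hbb-bt, Alas2 or Slc4a1, and all 6 were found among 55487 genes. All 6 also passed the filter on low counts that left 22485 genes for testing. Total RNA was sequenced from MFP of female C57BL/6J mice, with 2 aged samples (14 months) and 2 young samples (8 weeks), and the labels name no treatment, transgene or allele for either age. The labels call the 2 samples of an age biological replicates and do not say how many animals each holds. The pads were lysed whole with nothing sorted, so all cell types of the pad contribute to a library, and whether the animals were perfused is not given in the sources used here.

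Haemoglobin is a tetramer of alpha and beta chains that carries oxygen on a haem group. The adult mouse makes its alpha chains from Hba-a1 and Hba-a2 and its beta chains from Hbb-bs and Hbb-bt. Alas2 encodes the red cell form of the first enzyme of haem synthesis, and Slc4a1 encodes band 3, the anion exchanger of the red cell membrane. Mature red cells have no nucleus, and their transcripts are left over from the reticulocyte, the young red cell that has just entered the blood. In fat, these transcripts are generally taken as a measure of blood in the tissue.

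The 120 bases before each gene's RefSeq start are shown because the 6 genes are compared as one red cell programme. They come from RefSeq on GRCm38.p6, whose starts can differ from those of the GENCODE genes given further on, and are written 5′ to 3′ on the strand of the gene. Capitals mark the motif CACCC (bound by the KLF family), the CCAAT box, the GATA factor motif GATAA and the TATA box, searched as TATAA. Each was searched on both strands, so the reverse complement is in capitals too. Of the 6 genes, 5 are in the table of promoters, and Slc4a1 is named only.
Hbb-bs, chr7:103827929-103828048, minus strand: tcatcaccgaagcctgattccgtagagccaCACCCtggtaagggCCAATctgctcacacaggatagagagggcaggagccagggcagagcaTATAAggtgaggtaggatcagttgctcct
Hbb-bt, chr7:103813924-103814043, minus strand: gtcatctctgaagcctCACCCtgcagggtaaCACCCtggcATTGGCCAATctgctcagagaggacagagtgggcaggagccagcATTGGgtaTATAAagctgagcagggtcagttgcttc
Hba-a1, chr11:32283552-32283671, plus strand: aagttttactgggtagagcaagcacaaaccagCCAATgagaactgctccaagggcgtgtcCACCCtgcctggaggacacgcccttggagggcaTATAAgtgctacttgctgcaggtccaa
Hba-a2, chr11:32296372-32296491, plus strand: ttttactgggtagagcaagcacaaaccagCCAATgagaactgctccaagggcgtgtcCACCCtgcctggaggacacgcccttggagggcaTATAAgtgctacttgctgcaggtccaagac
Alas2, chrX:150547297-150547416, plus strand: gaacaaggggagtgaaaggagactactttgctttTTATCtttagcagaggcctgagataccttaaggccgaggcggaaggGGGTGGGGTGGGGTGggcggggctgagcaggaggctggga

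All 4 globin promoters held the motif CACCC, the CCAAT box and the TATA box in these 120 bases. The CCAAT box came first in the alpha genes and the motif CACCC came first in the beta genes. The Alas2 window held 3 adjoining copies of CACCC and 1 copy of the GATA factor motif, all on the other strand. Of 32851 promoters in the table, 31.7% held the motif CACCC, 21.3% the CCAAT box, 10.5% the GATA factor motif and 11.8% the TATA box within the same distance, and 0.688% held all those of the globin promoters together. A match of letters is a description and not a binding site.

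The globin genes come in near-identical pairs, and short coding stretches are shown because they decide how far counts can be assigned within a pair. The sequences are from GENCODE M21, with positions counted from the first coding base, and capitals mark the base at which the members of a pair differ.
Hba-a1, coding bases 351 to 410: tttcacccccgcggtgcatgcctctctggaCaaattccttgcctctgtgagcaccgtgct
Hba-a2, coding bases 351 to 410: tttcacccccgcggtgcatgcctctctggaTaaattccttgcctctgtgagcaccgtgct
Hbb-bs, coding bases 382 to 441: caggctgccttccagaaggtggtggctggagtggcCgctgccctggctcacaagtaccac
Hbb-bt, coding bases 382 to 441: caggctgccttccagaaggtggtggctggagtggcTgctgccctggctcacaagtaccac

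That was the only coding difference in each pair, 1 of 426 bases for the alpha genes and 1 of 441 bases for the beta genes. Over the whole mRNA, 62.2% of all stretches of 75 bases in Hba-a1 were also in Hba-a2, and 64.3% of those in Hbb-bs were also in Hbb-bt. In the opposite direction, the shares were 81.0% for Hba-a2 and 56.6% for Hbb-bt. How reads that match both genes of a pair were counted, or whether they were counted at all, is not given in the sources used here. The split within a pair and the level of a pair are therefore uncertain.

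Total counts ran from 68803304 to 98402403 per library. At this depth 3 counts correspond to between 0.0337 and 0.0407 CPM (the usual depth-scaled count, here on library totals scaled by TMM), which covers counting error only. The labelled tissue had its own markers: 8 of 8 adipocyte markers passed the filter on low counts, with a summed level of 8684 to 13652 CPM. Skeletal muscle was present too, and its 12 markers summed to more than the adipocyte markers in every library, 10422 to 63996 CPM. Sums over different genes do not measure the share of a tissue. Young replicate 1 stood apart in lymphocyte markers, with 636 CPM summed over 8 B cell genes against 3.82 to 80.4 CPM in the other 3 libraries, so results are also given without it.

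All 6 red cell genes were at a higher level in both aged libraries than in both young libraries, with fitted differences from 2.10-fold for Hbb-bt to 3.15-fold for Slc4a1. Of all genes tested, 23.3% likewise had both aged above both young libraries and 22.8% had both below. The log2 fold change was at least 1 for 6 of 6 red cell genes and for 6.98% of all genes, and it was above 0 for 47% of all genes. At a Benjamini-Hochberg adjusted p of 0.05, edgeR's quasi-likelihood test called none of the 6 genes, and it called 0 of the 22485 genes tested (0%). At an unadjusted p of 0.05 the same test held 6 of 6 red cell genes, all higher in aged MFP, where 7.24% of all genes were higher and 3.31% lower at that threshold. DESeq2, the tool the study names, called 5 of the 6 genes higher in aged MFP, all but Slc4a1, against 3.09% of the genes tested called higher and 0.632% called lower.

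Hbb-bs (ENSMUSG00000052305, chromosome 7, 103826534 to 103828096, minus strand of GRCm38), the beta gene with more counts as deposited, was at 136 and 104 CPM in aged replicates 1 and 2. It was at 48.4 and 54.5 CPM in young replicates 1 and 2. The lower aged library was 1.91 times the higher young library, so the ages did not overlap. The aged mean was 120 ± 22.6 CPM (SD, n = 2) and the young mean was 51.5 ± 4.33 CPM (SD, n = 2). The log2 fold change was 1.23 (standard error 0.19, adjusted p = 0.36 from edgeR and 0.000437 from DESeq2). Hbb-bt (ENSMUSG00000073940, chromosome 7, 103812524 to 103813996, minus strand), its neighbour, was at 9.00 and 6.69 CPM in the aged and 4.20 and 3.28 CPM in the young libraries. Here the nearest libraries, aged replicate 2 and young replicate 1, were 1.59 times apart. Its log2 fold change was 1.07 (standard error 0.29, adjusted p = 0.418 from edgeR and 0.0464 from DESeq2).

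The alpha genes showed the same order of libraries between the ages. Hba-a1 (ENSMUSG00000069919, chromosome 11, 32283511 to 32284465, plus strand) was at 39.4 and 28.6 CPM in aged replicates 1 and 2 and at 11.5 and 14.4 CPM in young replicates 1 and 2. Every aged library was at least 1.99 times every young library. The log2 fold change was 1.39 (standard error 0.25, adjusted p = 0.361 from edgeR and 0.000738 from DESeq2). Hba-a2 (ENSMUSG00000069917, chromosome 11, 32296489 to 32297298, plus strand) was at 18.5 and 11.7 CPM in the aged libraries and at 5.99 and 6.12 CPM in the young libraries. The young libraries were nearly level for this gene, whereas the aged libraries spread over 15.1 ± 4.83 CPM (SD, n = 2). The log2 fold change was 1.32 (standard error 0.30, adjusted p = 0.404 from edgeR and 0.00905 from DESeq2).

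Alas2 and Slc4a1, which are not globins, were lower in level per length and also had higher values in aged MFP. Alas2 (ENSMUSG00000025270, chromosome X, 150547375 to 150570638, plus strand) was counted 736 and 518 times in aged and 214 and 238 times in young MFP. These correspond to 9.00 and 5.82 CPM in aged and 2.61 and 3.23 CPM in young MFP, without overlap. The log2 fold change was 1.34 (standard error 0.34, adjusted p = 0.408 from edgeR and 0.0188 from DESeq2). Alas2 is overlapped on the other strand by Apex2, a DNA repair gene, and by Mir3620. Whether the counting used the strand is not given in the sources used here. The levels of Apex2 overlapped between the ages, with -0.15 (standard error 0.22) as its log2 fold change. Slc4a1 (ENSMUSG00000006574, chromosome 11, 102348824 to 102366203, minus strand) was counted only 59 and 31 times in aged and 11 and 15 times in young MFP. The log2 fold change was 1.66 (standard error 0.56, adjusted p = 0.461 from edgeR and 0.362 from DESeq2). Aged replicate 1 carried much of this, since without it the log2 fold change of Slc4a1 was 1.03.

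**Figure D1:**
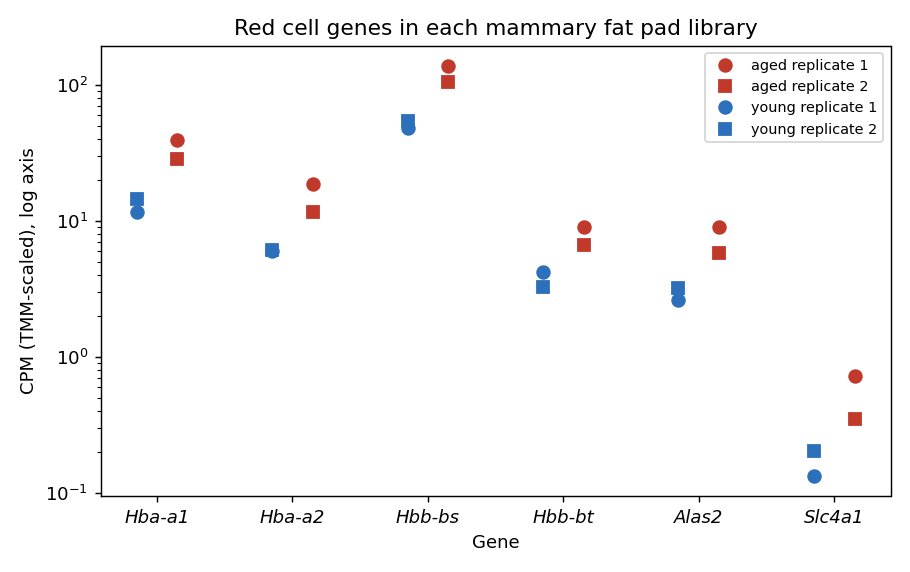
Level of each of the 6 red cell genes in each library, in TMM-scaled CPM on a log axis, with aged libraries in red and young libraries in blue (circles are replicate 1 and squares replicate 2). In every gene both red points lie above both blue points, from Hbb-bs at 48.4 to 136 CPM down to Slc4a1 at 0.134 to 0.722 CPM.

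Per kilobase of annotated exon, the genes stood in the same order in all 4 libraries. Hbb-bs was highest, with 178 and 136 CPM per kb in aged replicates 1 and 2 and 63.0 and 71.0 CPM per kb in the young libraries, and its mean level was above that of 99.0% of 22426 genes with an annotated length. Hba-a1 followed with 14.2 to 48.5, then Hba-a2 with 8.98 to 27.8, Hbb-bt with 4.66 to 12.8, Alas2 with 1.09 to 3.75 and Slc4a1 with 0.0274 to 0.148 CPM per kb. Within either age no 2 neighbours in this order overlapped. The level of Slc4a1 was above that of only 3.2% of these genes. The exon lengths join all annotated transcripts, including those that keep an intron. The levels of the globins, and their order within a pair, rest on the uncertain counting of shared reads.

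Summing the 4 globin genes removes the split within a pair, but it would not bring back shared reads that were left uncounted. The sum was 203 and 151 CPM in aged replicates 1 and 2, against 70.1 and 78.3 CPM for the young replicates. The aged mean of 177 ± 36.7 CPM (SD, n = 2) was 2.39 times the young mean of 74.2 ± 5.77 CPM (SD, n = 2). Both aged libraries were thus above both young libraries, with a difference of 1.24 in mean log2 CPM, and the exact two-sided permutation test gave p = 0.333, the smallest that 2 against 2 samples allow. As a share of all counts before scaling, the globins took 0.0198% (95% Wilson interval 0.0195 to 0.0201) and 0.0137% (0.0135 to 0.0139) of the aged libraries. They took 0.0074% (0.0072 to 0.0076) and 0.0084% (0.0082 to 0.0086) of the young libraries. The intervals cover counting error only, and those of the aged libraries did not overlap each other.

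Within a library, the proportions among the red cell genes can be compared without any scaling, but their sizes rest on how shared reads were counted. The alpha genes made up 28.5% and 26.6% of globin counts in the aged libraries and 25.0% and 26.2% in the young libraries. The aged libraries were above the young ones, but the 95% Wilson intervals of aged replicate 2 (25.9 to 27.4%) and young replicate 2 (25.1 to 27.3%) overlapped. Alas2 made up 4.24% and 3.70% of the counts of Alas2 and the globins in aged MFP and 3.59% and 3.96% in young MFP. The ages therefore overlapped in the share of Alas2, and all 4 of its 95% Wilson intervals shared values near 4%, from the lowest upper bound of 4.03% to the highest lower bound of 3.95%. The share of Slc4a1 among Slc4a1 and globin counts was 0.354% and 0.229% in aged and 0.191% and 0.259% in young MFP, again with overlap. Hba-a2 made up 32.0% and 29.0% of alpha counts in aged and 34.2% and 29.9% in young MFP. Hbb-bt made up 6.19% and 6.03% of beta counts in aged MFP and 7.98% and 5.67% in young MFP, where young replicate 1 stood above the other 3 libraries.

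**Figure D2:**
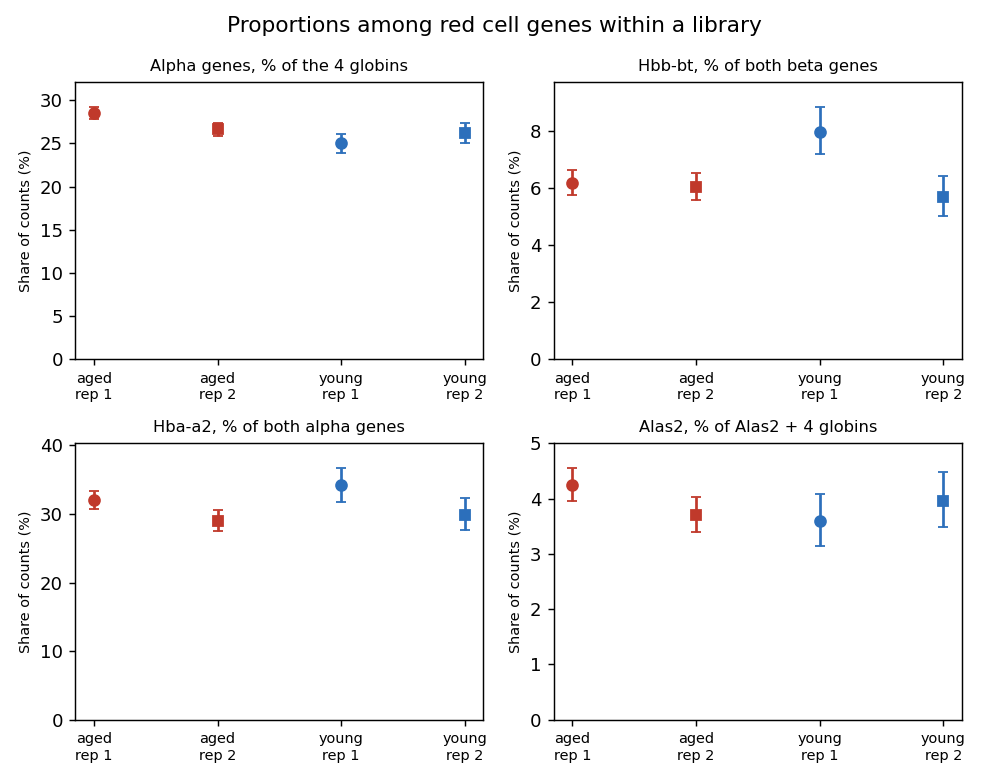
Proportions among red cell genes in each library, as percent of the counts named above each panel, with 95% Wilson intervals that cover counting error only. Each axis starts at 0, and the libraries span 25.0 to 28.5% for the alpha genes, 5.67 to 7.98% for Hbb-bt, 29.0 to 34.2% for Hba-a2 and 3.59 to 4.24% for Alas2.

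The size of the difference was then computed under other settings and with libraries left out. Over 8 other settings of edgeR on all 4 libraries, the log2 fold changes of the 6 genes lay between 0.90 and 1.66, with adjusted p-values from 0.23 to 0.84. Without young replicate 1, the lymphocyte-rich library, the log2 fold change was 1.14 for Hbb-bs, 1.26 for Hbb-bt, 1.24 for Hba-a1, 1.30 for Hba-a2, 1.20 for Alas2 and 1.39 for Slc4a1. With only aged replicate 2 to stand for aged MFP, the values were 1.01, 0.83, 1.13, 0.94, 0.98 and 1.03 in the same order of genes. All 6 genes stayed higher in aged MFP with any 1 library left out.

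**Figure D3:**
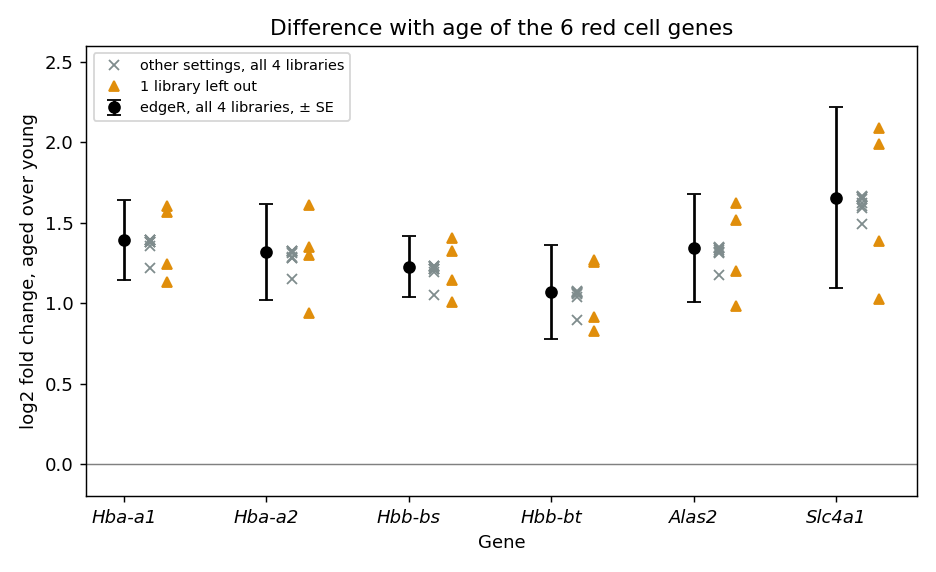
Log2 fold change of each red cell gene in aged over young MFP, with black points for edgeR on all 4 libraries (bars are standard errors), grey crosses for the other settings on all 4 libraries and orange triangles for fits with 1 library left out. Every mark lies above 0, between 0.83 and 2.09.

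Other genes of the red cell were then compared from lists by role, each set beside the median log2 fold change of -0.04 over all genes tested. Beyond the adult chains, the globin family held the embryonic chains Hbb-y and Hba-x, and also Hbb-bh2, all at 0 counts in every library. Hbb-bh1, Hbq1a and Hbq1b had at most 3 counts in any library. Of the 9 other globins only 3 were tested. Mb, the oxygen store of muscle, had 7971 and 891 counts in aged and 450 and 141 counts in young MFP, so that aged replicate 1 stood far above the rest. Cygb, a globin of fibroblasts and stellate cells, was at 60.6 and 44.5 CPM in aged and 28.1 and 22.1 CPM in young MFP, a difference of 1.07 on the log2 scale (standard error 0.24, adjusted p = 0.403 from edgeR). DESeq2 called both Mb and Cygb higher, 2 of the 3 genes tested, against 3.09% of all genes tested. Neither is a gene of red cells.

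Among 17 further genes of the red cell membrane and its skeleton, 10 passed the filter. Of these, 7 had a positive and 3 a negative log2 fold change, with a median of 0.17, and edgeR called 0. Tmod1, which caps actin filaments, was at 41.2 and 80.0 CPM in aged and 12.4 and 20.3 CPM in young MFP, and Ank1, the erythrocyte ankyrin, was at 65.0 and 121 CPM in aged and 18.3 and 33.5 CPM in young MFP. DESeq2 called both higher, together with Sptb, the beta spectrin, so 3 of the 10 genes, against 3.09% of all genes tested. All 3 are also used by skeletal muscle. In all 3 aged replicate 2 was the highest library, whereas aged replicate 1 was highest for the 6 red cell genes. Muscle genes themselves differed in this order. The summed skeletal muscle markers were highest in aged replicate 2, whereas the muscle genes Mb and Myh2 were highest in aged replicate 1. The part of muscle in the differences of Tmod1, Ank1 and Sptb was not tested. Among the membrane genes that are more restricted to red cells, Rhag and Kel had at most 3 counts in any library.

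The medians of the remaining red cell lists lay nearer to that of all genes than the 6 genes did. Of 16 genes of late red cells (enzymes, iron uptake, removal of organelles), 15 were in the table and 11 were tested. Aged MFP had the higher level for 8 of these and the lower for 3, and their median was 0.16. Car1, a carbonic anhydrase, had 51 and 58 counts in aged and 12 and 24 counts in young libraries, a difference of 1.43 on the log2 scale (standard error 0.52, adjusted p = 0.473 from edgeR). DESeq2 called 1 of the 11 genes higher, against 3.09% of all genes tested. That was Bpgm, which makes the bisphosphoglycerate that lowers the oxygen affinity of haemoglobin. Its level was 23.6 and 28.5 CPM in aged and 14.4 and 16.0 CPM in young MFP. The red cell pyruvate kinase gene Pklr was at 0 in every library. Ahsp was not analysed here. All 14 genes of haem synthesis besides Alas2 were tested, with 8 higher, 6 lower and a median of 0.03. Their extremes were Fech, which inserts the iron, at 0.53 (standard error 0.16), and Slc25a38, the glycine carrier, at -0.45 (standard error 0.17), and edgeR called neither (adjusted p = 0.431 and 0.488). Alas1, the form of the first enzyme found in all tissues, overlapped between the ages (-0.02 on the log2 scale, standard error 0.21), beside 1.34 for Alas2.

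Erythroid regulators act in the marrow before a red cell is released, and several also work in other cells. Of 11 genes 9 were tested, with 2 higher and 7 lower and a median of -0.15. Gata1, the master regulator of red cell genes, had 4 and 7 counts in aged libraries, 93 counts in young replicate 1 and 10 counts in young replicate 2. Bcl11a, the repressor of embryonic globins and a gene of B cells, was at 75.8 CPM in young replicate 1 and between 8.84 and 14.2 CPM elsewhere. Both were thus highest in the lymphocyte-rich library. Klf1, which switches on the adult beta chain, had between 4 and 9 counts per library and was not tested.

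Genes that bind, take up or break down free haemoglobin and haem, or that handle the released iron, were 12, all tested. Their log2 fold changes were positive for 11 and negative for 1, with a median of 0.27. Both aged libraries were above both young libraries for 6 of the 12, and for 23.3% of all genes tested. EdgeR called 0 of the 12 genes. DESeq2 called 1 of them higher, against 3.09% of all genes tested. That was the ferritin heavy chain gene Fth1, at 617 and 630 CPM in aged and 416 and 401 CPM in young MFP. Lrp1, a receptor for haem bound to haemopexin among many other ligands, was at 1685 and 955 CPM in aged and 723 and 869 CPM in young MFP (log2 fold change 0.73, standard error 0.36, adjusted p = 0.526 from edgeR). Spic, the factor of red pulp macrophages, was at 0.673 and 1.01 CPM in aged and at 3.20 and 0.244 CPM in young MFP, where the ages overlapped.

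**Figure D4:**
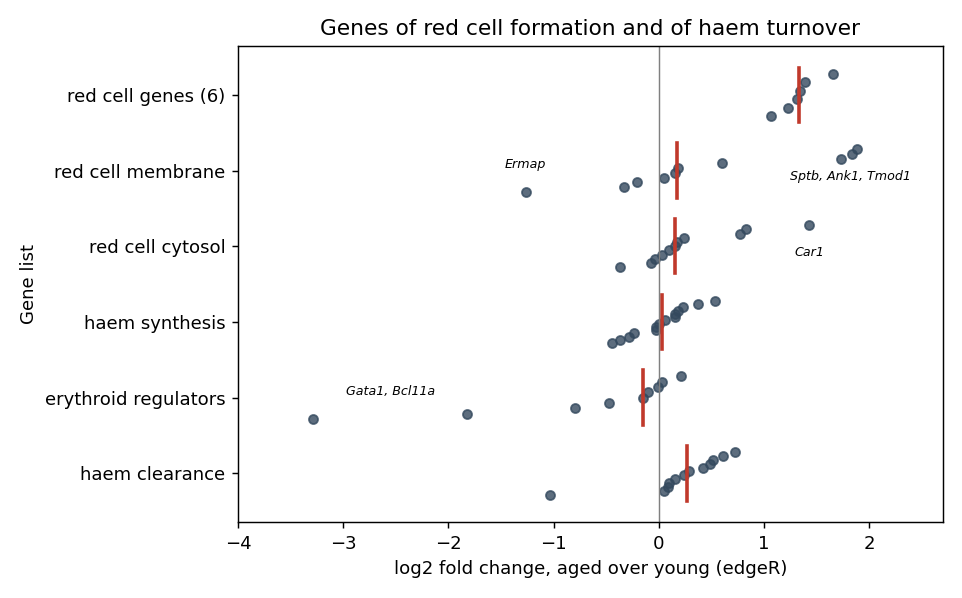
Log2 fold change (aged over young) of each gene tested (points) and the median (red lines) for the 6 red cell genes and 5 lists of related genes. The 6 genes lie between 1.07 and 1.66, whereas the medians of the other lists lie between -0.15 and 0.27.

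Markers of other cells were read beside the globins, since blood brings platelets and white cells, and since the pads also hold vessels, fat and muscle. In whole tissue, fewer cells of a type and less RNA per cell cannot be told apart. The platelet list was mixed: of 13 genes, 10 were tested, with 5 higher and 5 lower and a median of 0.14. Their summed level was 36.9 and 29.0 CPM in aged and 65.9 and 52.9 CPM in young MFP. Much of this sum was Itgb3, an integrin that vessels and other cells also express, and without it the sum was 20.0 and 14.4 CPM in aged and 16.2 and 18.4 CPM in young MFP, with overlap. The median ranged from -0.38 without aged replicate 1 to 0.83 without young replicate 1. Gp6, the collagen receptor of platelets, had 27 and 14 counts in aged and 2 and 1 counts in young libraries, whereas Itgb3 was at 16.9 and 14.6 CPM in aged and 49.7 and 34.5 CPM in young MFP (log2 fold change -1.42, standard error 0.25, adjusted p = 0.36 from edgeR). DESeq2 called Itgb3 lower and did not call Gp6. Pf4, a chemokine of platelets and macrophages that was picked on its values, was at 8.89 and 7.97 CPM in aged and 5.12 and 4.07 CPM in young MFP. Among genes more restricted to platelets, 3 that were also picked on their values were higher in both aged libraries, with Ppbp, a platelet chemokine, at 1.17 and 0.584 CPM in aged and 0.415 and 0.271 CPM in young MFP. Tubb1, the platelet tubulin, was at 0.587 and 0.348 CPM in aged and 0.305 and 0.190 CPM in young MFP, and Gp9, a subunit of the von Willebrand factor receptor, had 17 and 8 counts in aged and 2 and 4 counts in young libraries. Other platelet genes lay the opposite way, with Gp5 at 1.83 and 1.09 CPM in aged and 2.44 and 2.24 CPM in young MFP, and Itga2b at 6.26 and 3.81 CPM in aged and 7.23 and 11.2 CPM in young MFP. Neither tool called Ppbp, Tubb1, Gp5 or Itga2b, and Gp9 was not tested.

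White cell markers varied between the libraries of an age. Only 5 of 14 neutrophil genes were tested, S100a9 had between 5 and 19 counts per library, and the summed level of the list (246 and 347 CPM in aged, 76.9 and 296 CPM in young MFP) was mostly Ltf, which mammary epithelium also makes. Mmp9 was at 8.35 and 9.49 CPM in aged and 3.37 and 3.04 CPM in young MFP, and DESeq2 called it higher. The summed B cell markers were 7.51 and 80.4 CPM in aged and 636 and 3.82 CPM in young MFP, with Fcmr at -3.44 (standard error 2.51) on the log2 scale. The summed T cell markers were 15.4 and 64.9 CPM in aged and 745 and 7.56 CPM in young MFP, with Cd3d (-3.78, standard error 2.33) and Cd8a (-3.51, standard error 2.30) the furthest from 0. These directions rested on 1 library, since without young replicate 1 the median log2 fold change was 3.15 for B cell and 2.69 for T cell genes. Young replicate 1 was the highest library in both lists, and it was the lowest of the 4 in summed globins. Macrophage markers summed to 343 and 443 CPM in aged and 590 and 225 CPM in young MFP, with overlap. Lyz2 alone gave 374 CPM of that sum in young replicate 1, and without it the sum was 269 and 324 CPM in aged and 216 and 179 CPM in young MFP, without overlap. In this list 7 of the 8 genes had a positive log2 fold change and Lyz2 a negative one, the median was 0.54 (1.04 without young replicate 1), and neither tool called any. Within that list Lyz2 was at -1.12 (standard error 1.02) and Mrc1 at 0.81 (standard error 0.22) on the log2 scale.

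The summed markers of the aged libraries were 1.21 times those of the young libraries for vessels, 1.39 times for fat and 4.19 times for muscle, beside 2.39 times for the globins. The 10 endothelial markers summed to 1234 and 958 CPM in aged and 819 and 994 CPM in young MFP, with overlap, and none of them was called by either tool, Vwf having the largest log2 fold change at 0.97 (standard error 0.52) and Flt1 the next at 0.47 (standard error 0.21). Per 1000 CPM of endothelial markers, the globins were at 165 and 158 CPM in aged and 85.6 and 78.8 CPM in young libraries, 1.96-fold apart without overlap. The 8 adipocyte markers all had a positive log2 fold change, as did 47% of all genes tested. Both aged libraries were above both young libraries for all 8, and for 23.3% of all genes tested. Lep (log2 fold change 1.20, standard error 0.28) and Adipoq (1.00, standard error 0.28) had the largest values, and Fabp4 (0.20, standard error 0.26) the smallest. DESeq2 called 1 of the 8, Lep, higher, against 3.09% of all genes tested. Per 1000 CPM of adipocyte markers the globins were at 14.9 and 14.0 CPM in aged and 8.07 and 8.79 CPM in young libraries, 1.71-fold apart without overlap. The mammary epithelial markers summed to 1388 and 1356 CPM in aged and 782 and 1687 CPM in young MFP, with overlap, and with Krt5 at 1.36 (standard error 0.72) and Krt14 at 1.22 (standard error 0.70) on the log2 scale.

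Aged MFP held more of all 12 skeletal muscle markers (median 2.07 on the log2 scale). Both aged libraries were above both young libraries for 11 of the 12, and for 23.3% of all genes tested. DESeq2 called 9 of the 12 markers higher, against 3.09% of all genes tested, and edgeR called 0. No marker of this list was at 0 in any library. Their sum was 40585 and 63996 CPM in aged replicates 1 and 2, against 10422 and 14535 CPM in the young replicates. The order of the aged libraries was thus the opposite of that for the globins, which were higher in aged replicate 1. Myh2 and Myh7, the fast oxidative and the slow myosin, had the largest differences and rested on aged replicate 1, where Myh2 was at 578 CPM against 1.06 to 2.16 CPM elsewhere. Per 1000 CPM of muscle markers the globins were at 5.01 and 2.37 CPM in aged and 6.73 and 5.39 CPM in young libraries, lower in aged MFP. The part of muscle, fat and vessels in the difference of the red cell genes was not tested.

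**Figure D5:**
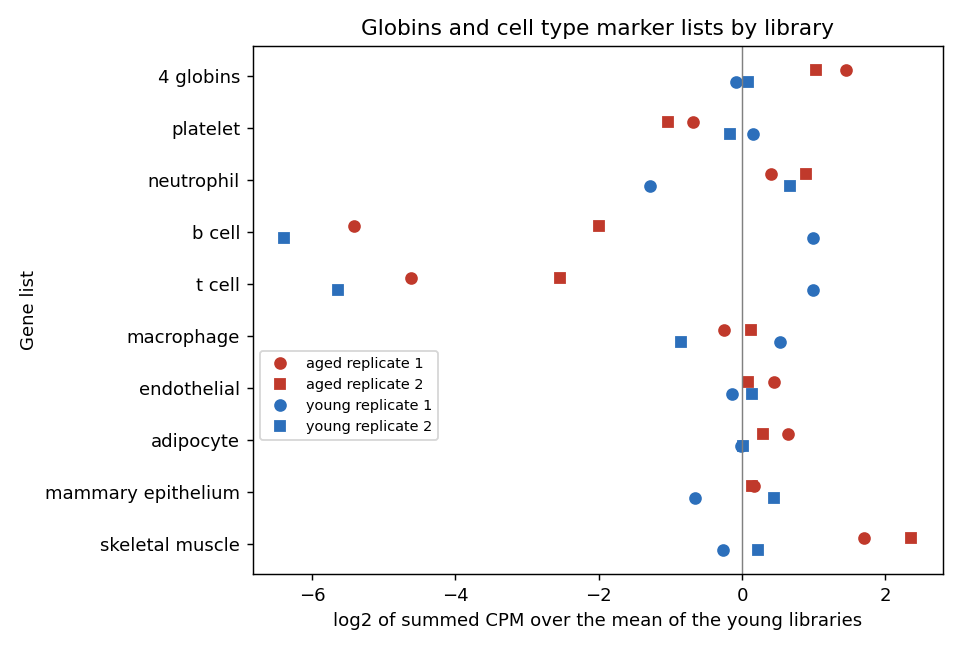
Summed CPM of the 4 globin genes and of each cell type marker list in each library, as log2 of its ratio to the mean of both young libraries. The globins of the aged libraries lie to the right of both young libraries, as do the adipocyte and skeletal muscle markers, the platelet markers lie to the left with Itgb3 included, and the B and T cell markers are highest in young replicate 1.

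The genes whose levels over the 4 libraries were most like the summed globins were Pltp, Fbxl16, Tmem63c, Gm36660, Abcb1a, Gstt1, Omd and Alox12. Likeness was the root mean square difference between log2 CPM values centred over the 4 libraries, and it ran from 0.03 for Pltp, the phospholipid transfer protein, to 0.08 for Alox12, a lipoxygenase of platelets and skin. Pltp was at 127 and 101 CPM in aged and 44.9 and 49.1 CPM in young MFP. Abcb1a, an efflux pump of vessels and other barriers, was at 37.5 and 30.0 CPM in aged and 14.6 and 15.8 CPM in young MFP. None of the 8 is in the red cell lists. The 4 globins are part of the sum, and Hbb-bs gave 136 of its 203 CPM in aged replicate 1, so their own likeness to it is partly built in. By the same measure, the members lay at 0.02 for Hbb-bs, 0.09 for Hba-a1, Alas2 at 0.09, Hba-a2 at 0.10, Hbb-bt at 0.20 and Slc4a1 at 0.27. Likeness over 4 libraries is a description and carries no test.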

How the data were processed

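Total RNA of whole MFP was depleted of ribosomal RNA and sequenced with a strand-preserving kit. The deposited values are gene-level counts that the authors neither normalized nor pooled, with 1 column per sample. The submitters' processing notes name featureCounts, R 3.6.1 and the builds GRCm38 and hg38, and the aligner and the treatment of reads with several matches are not given in the sources used here. Samples were grouped by age from their titles. In R 4.3.3, genes kept by filterByExpr were scaled by TMM and tested with edgeR 4.0.16 (glmQLFit and glmQLFTest, with age as the only term), with Benjamini-Hochberg adjustment over all genes tested. DESeq2 1.42.0 with its default settings was the alternative, together with other scalings, filters, a replicate block and each sample left out. The standard error is the log2 fold change divided by the square root of F. Log2 CPM for the likeness used a prior count of 2. The labels call the samples biological replicates without naming animals, so p-values measure the spread between these samples. Named were the 6 genes, the 2 largest changes per list, red cell genes at 0 and the 8 genes most like the summed globins, while Apex2, Rhag, Kel, Sptb, Bpgm, Fth1, Pf4, Ppbp, Tubb1, Gp9, Gp5, Itga2b, Alas1, Klf1, S100a9, Hbb-bh1, Hbq1a and Hbq1b were added after their values were seen. Some genes that this rule names are not reported here. The genes and lists were chosen with earlier results of these data known. The code was tested on simulated data. Positions and exon lengths come from GENCODE M21.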

Additional observations from a re-analysis of the deposited data

How the results depend on the processing

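The log2 fold changes of the 6 red cell genes kept their direction under every alternative run. DESeq2 moved 5 of them past the threshold, with 1.40 for Hba-a1, 1.32 for Hba-a2, 1.23 for Hbb-bs, 1.07 for Hbb-bt and 1.35 for Alas2, and called 845 genes where edgeR called 0 (1627 higher and 744 lower at an unadjusted p under 0.05). The cause was not tested. With 1 library left out, the values lay between 0.83 and 2.09 and adjusted p-values between 0.0747 and 0.976, and the lone sample of an age is then assumed to vary like the others. Scaling by total counts alone lowered the median of all genes by 0.18 on the log2 scale and the list medians to -0.14 for haem synthesis, -0.0016 for the membrane list, -0.023 for late red cell genes and 0.084 for haem clearance. With 1 library left out, the medians ranged from -0.047 to 0.16 for haem synthesis, from 0.0010 to 0.41 for the membrane list, and from -0.65 to -0.10 for erythroid regulators. A replicate block in the fit gave 1.38 for Hba-a1, 1.28 for Hba-a2, 1.22 for Hbb-bs, 1.06 for Hbb-bt, 1.32 for Alas2 and 1.59 for Slc4a1, and 0 genes called. Deviations of same-numbered samples correlated at -0.48 across genes, and a crossed block, added after seeing the data, also called 0 genes. Slc4a1 had 11 to 59 counts per library, and the part of depth in its result was not tested. The sums of platelet genes without Itgb3 and of macrophage genes without Lyz2 were added after seeing the data.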
